A study of Mus musculus with 10 samples.

Results

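The insulin-like growth factor axis was examined in mouse heart RNA as 10 genes out of the 24888 in the gene table: the ligands Igf1 and Igf2, the receptors Igf1r and Insr, the adaptors Irs1 and Irs2, and the binding proteins Igfbp3, Igfbp4, Igfbp5 and Igfbp7. They were taken by gene symbol and not by their measured values, and each symbol matched 1 row. The study compared hearts in which SPOP, the substrate-binding subunit of a cullin-3 ubiquitin ligase, was overexpressed in cardiomyocytes (genotype group SPOP_CKI, 5 libraries) with hearts carrying the cardiomyocyte Cre driver alone (Cre_control, 5 libraries). All mice were labelled male, aged 8 to 10 weeks and kept under sham conditions. Both groups carried αMHC-Cre, the Myh6-promoter transgene that drives Cre in cardiomyocytes; the control libraries are titled WT but have the genotype Myh6Cre, so no Cre-free heart is among the groups compared. RNA came from whole heart tissue, in which cardiomyocytes, fibroblasts, endothelial cells and macrophages are mixed, and in such bulk RNA fewer cells of a type and less RNA per cell cannot be told apart. The labels do not say which mouse each library came from, so the tests measure the spread between these libraries.

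Igf1 and Igf2 are secreted growth factors that act mainly through Igf1r, a tyrosine kinase receptor closely related to the insulin receptor Insr. The activated receptors phosphorylate the adaptors Irs1 and Irs2, which recruit phosphoinositide 3-kinase and lead to AKT, mTOR and the FOXO transcription factors, while a Ras-ERK branch runs beside it. Binding proteins carry and sequester the ligands outside the cell. In the heart this axis is known for growth of cardiomyocytes and for restraint of muscle protein breakdown, and Igf1 is made by the liver and, within tissues, by cells such as fibroblasts and macrophages.

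The libraries held 15316293 to 17114869 reads assigned to genes, and levels are given here as scaled reads, the read count divided by the size factor of the library. Spop, the overexpressed gene, averaged 31897 ± 6254 scaled reads in the overexpressing hearts against 3425 ± 317 in controls (mean ± SD, n = 5 each), a log2 difference of 3.20 (SE 0.17, limma adjusted p = 6.15e-06). 2 features of the libraries bear on what follows. Library SPOP_CKI 3 stood apart: 973 tested genes had no read in it while each of the other 9 libraries held at least 10 scaled reads, and no other library had more than 1 such gene. Xist, the RNA of the inactive X chromosome, was read at 4491 to 6578 scaled reads in SPOP_CKI 1, SPOP_CKI 3 and Cre_control 5, and at no more than 5.31 in the other 7 libraries. In the same 3 libraries the Y-linked Ddx3y was at 0, against 1173 to 2032 scaled reads in the other 7, although all 10 are labelled male. For several results, though not all, values without SPOP_CKI 3 or without these 3 libraries are also given.

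Igf1 was the 1 member that changed in the limma fit. All 10 members passed the filter on low values, a level of at least 10 scaled reads in at least 5 libraries. 1 of 10 was called higher in SPOP_CKI (limma, Benjamini-Hochberg adjusted p under 0.05) where 10.0% of the 14212 genes tested were called higher, and 0 of 10 were called lower where 12.3% were. Called in either direction were 22.3% of all genes. At an unadjusted p under 0.05, and by edgeR and DESeq2, the members called lower were also 0. Igf1 was the 1 member whose groups did not overlap, beside 21.3% of tested genes without overlap (9.01% with SPOP_CKI higher and 12.3% with SPOP_CKI lower). The count of members called is below the share called across the table, and with 10 genes it is given as a description. The median of all tested genes was a log2 difference of -0.11, and 0.03 after quantile normalization and 0.06 after centring each library on transcript GC content. It was -0.02 without SPOP_CKI 3, and also -0.02 without the libraries with Xist reads.

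**Figure D1:**
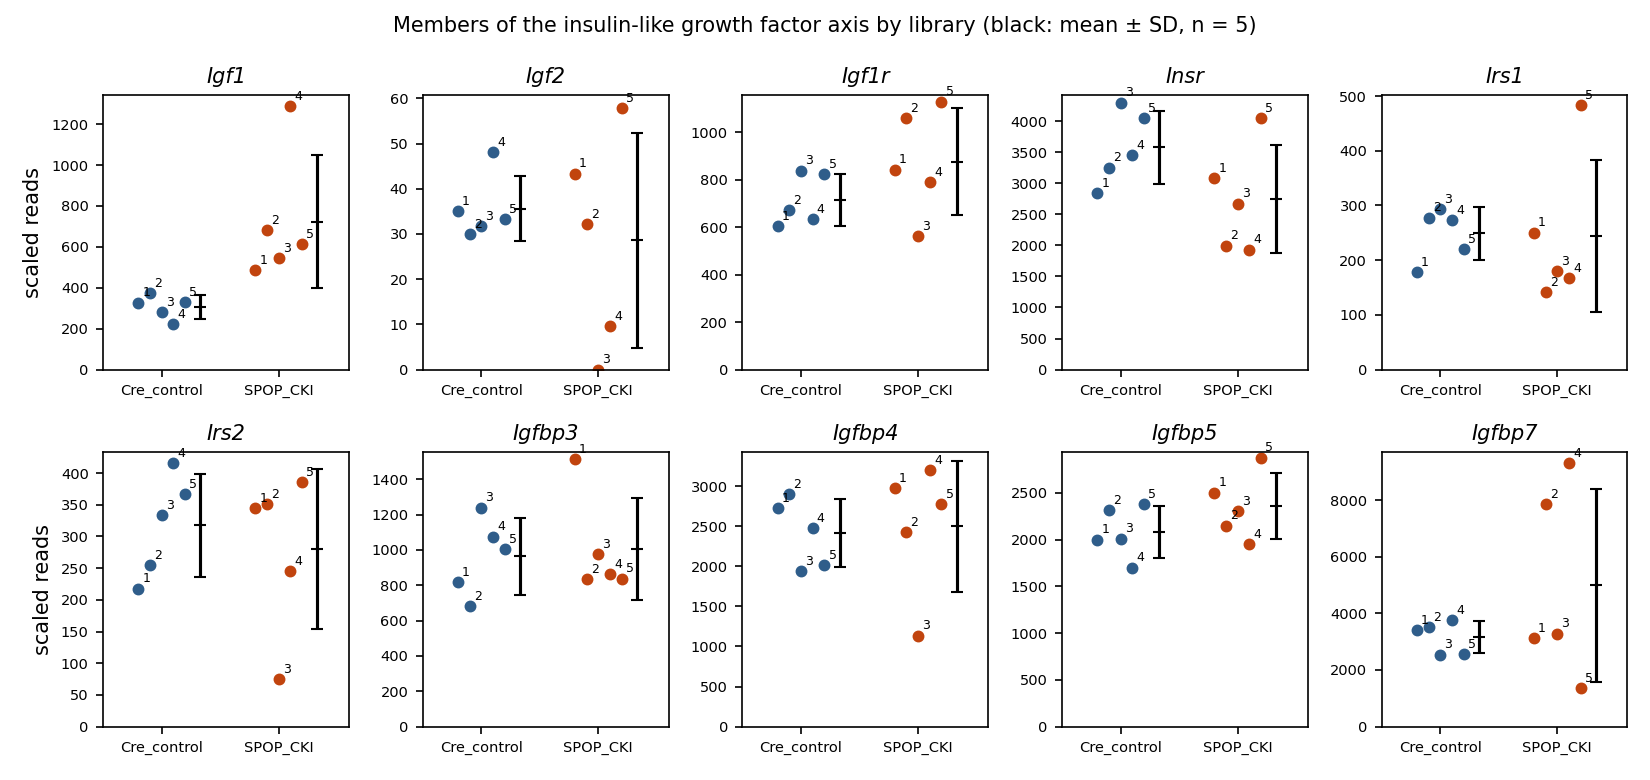
Scaled reads (y axis, linear, from 0) of the 10 members in each of the 5 Cre_control and 5 SPOP_CKI libraries (x axis, points numbered by library), with the group mean ± SD as a black bar. The 5 SPOP_CKI points for Igf1, 487 to 1289, all lie above the 5 control points, 223 to 373, and the groups overlap for the other 9 members.

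Igf1 encodes the main circulating and local growth factor of the axis (ENSMUSG00000020053, mm10 chr10:87858265-87937042, plus strand). Its level was 487, 681, 546, 1289 and 612 scaled reads in SPOP_CKI libraries 1 to 5, and 327, 373, 280.03, 223 and 330.1 in Cre_control libraries 1 to 5. Every SPOP_CKI library was above every control, and SPOP_CKI 4 was the highest by a wide margin. The mean was 723 ± 325 against 307 ± 57.3 scaled reads (SD, n = 5 each). Igf1 rose by a log2 difference of 1.16 (SE 0.26, 95% interval 0.60 to 1.72, limma adjusted p = 0.00945), which is 2.24-fold. Without SPOP_CKI 4 the difference was 0.93, without SPOP_CKI 3 it was 1.24, and without the 3 libraries with Xist reads it was 1.46. Igf1 stayed called in all 22 other settings and left-out libraries, with log2 differences from 0.82 to 1.46 and adjusted p from 0.000242 to 0.036. The authors' deposited table gives 1.24 for Igf1, with an adjusted p of 0.000547.

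Igf2 encodes the second ligand, a growth factor of fetal life that is low in adult heart (mm10 chr7:142650766-142666816, minus strand). It was the lowest member, at 43.4, 32.2, 0, 9.58 and 57.9 scaled reads in SPOP_CKI libraries 1 to 5 and 35.0, 30.04, 31.7, 48.1 and 33.2 in controls 1 to 5. The controls sat close together while SPOP_CKI 3 and 4 were far below them, SPOP_CKI 5 was above them and SPOP_CKI 1 and 2 were among them. No Igf2 read was found among the 15316293 reads of SPOP_CKI 3, which allows up to 3 reads, or 2.63 scaled reads, by counting error alone. For Igf2 the log2 difference was -1.21 with an SE of 0.96 (95% interval -3.32 to 0.89, limma adjusted p = 0.375). Without SPOP_CKI 3 it was -0.22, and -0.42 when the libraries with Xist reads were left out. The authors deposited a log2 fold change of -0.32 for Igf2.

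The receptors did not pass the test. Igf1r, the receptor for both ligands (mm10 chr7:67952827-68233668, plus strand), stood at 842, 1059.8, 561, 788 and 1128 scaled reads in SPOP_CKI 1 to 5 and 603, 671, 838, 632 and 823 in controls 1 to 5. SPOP_CKI 3 was the lowest of all 10 libraries and SPOP_CKI 5 the highest. Between groups Igf1r differed by 0.27 on the log2 scale (SE 0.20, 95% interval -0.17 to 0.71, limma adjusted p = 0.35). Without SPOP_CKI 3 the difference was 0.42 (adjusted p = 0.07), and 0.53 (adjusted p = 0.0577) when the libraries with Xist reads were left out.

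Insr, the insulin receptor (mm10 chr8:3122061-3279617, minus strand), was the more abundant receptor. It stood at 3079.9, 1995, 2674, 1931 and 4048 scaled reads in SPOP_CKI 1 to 5 and 2838, 3254, 4302, 3449.6 and 4048 in controls 1 to 5. SPOP_CKI 2, 3 and 4 were below every control, while SPOP_CKI 1 and 5 lay within the control range. Insr had a log2 difference of -0.42 (SE 0.22, 95% interval -0.90 to 0.06, limma adjusted p = 0.184). Over the other settings and left-out libraries it was -0.58 to -0.31, with adjusted p from 0.0521 to 0.342.

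Set against each other within a library, the receptors differed in balance between the groups, although neither receptor passed the test alone. The ratio of Igf1r to Insr was 0.184 to 0.213 in the 5 controls and 0.21 to 0.531 in the 5 SPOP_CKI libraries. Its log2 value, from scaled reads plus 1, was -1.87, -0.91, -2.25, -1.29 and -1.84 in SPOP_CKI 1 to 5 and -2.23, -2.28, -2.36, -2.45 and -2.30 in controls 1 to 5. The controls were nearly equal, and SPOP_CKI 3 was the 1 SPOP_CKI library inside their range. The group means were -1.63 ± 0.53 and -2.32 ± 0.08 (SD, n = 5 each), a difference of 0.69 (exact two-sided permutation p = 0.016, Benjamini-Hochberg adjusted over 3 ratios 0.048). Leaving out each library in turn gave differences of 0.51 to 0.84, with exact permutation p of 0.016 to 0.032. These left-out p-values were not adjusted over the 3 ratios, so whether the adjusted result holds in each run is not shown. With libraries paired by replicate number the exact permutation p was 0.062, the smallest that 5 pairs allow. No ratio between members was tested without the 3 libraries with Xist reads.

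**Figure D2:**
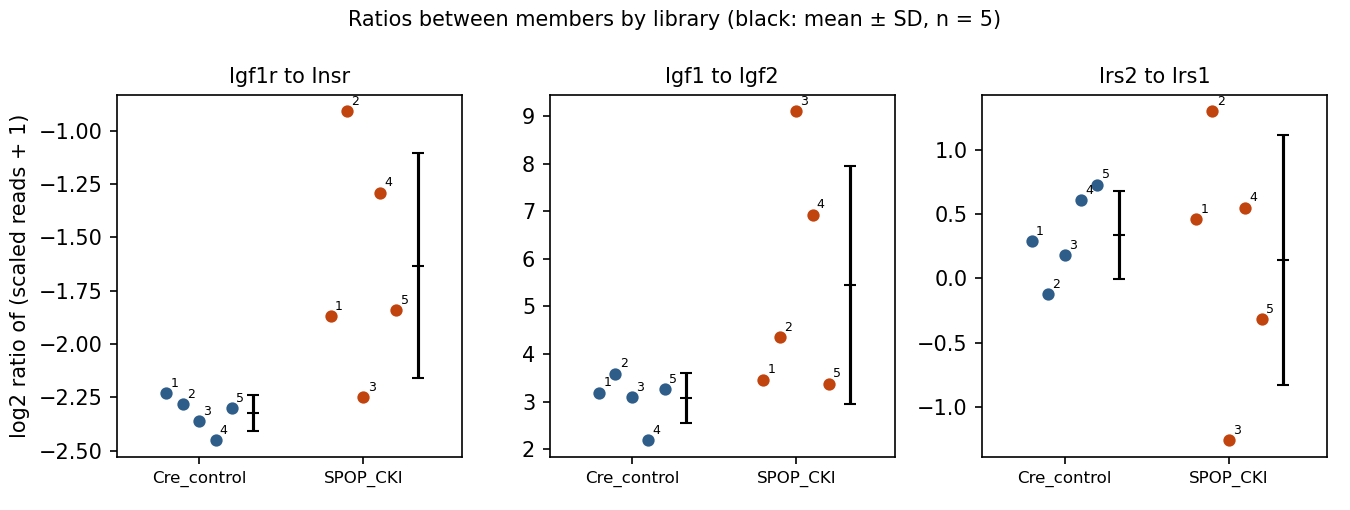
Log2 ratio per library (y axis, from scaled reads plus 1) of Igf1r to Insr, Igf1 to Igf2 and Irs2 to Irs1, for 5 Cre_control and 5 SPOP_CKI libraries (x axis), with the mean ± SD as a black bar. Igf1r to Insr runs from -2.45 to -2.23 in controls and from -2.25 to -0.91 in SPOP_CKI, and the highest Igf1 to Igf2 point, 9.10, is SPOP_CKI 3, where Igf2 is at 0.

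The ratio of Igf1 to Igf2 rested on few Igf2 reads. Its log2 value was 5.44 ± 2.50 in SPOP_CKI and 3.07 ± 0.52 in controls (SD, n = 5 each), a difference of 2.38 (exact two-sided permutation p = 0.032, adjusted over 3 ratios 0.048). The SPOP_CKI mean was carried by library 3 at 9.10 and library 4 at 6.93, the libraries in which Igf2 was at 0 and 9.58 scaled reads. Without SPOP_CKI 3 the difference was 1.46 (exact permutation p = 0.063), and leaving out SPOP_CKI 2 or 4, or control 1, 3 or 4, also gave p = 0.063 by the exact permutation test, with differences of 2.0 to 2.65.

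Irs1 and Irs2 are the docking proteins that carry the signal from both receptors to phosphoinositide 3-kinase, and Irs2 is known as a gene that FOXO factors turn on. Irs1 (mm10 chr1:82233101-82291416, minus strand) stood at 250.3, 142, 179.5, 167 and 483 scaled reads in SPOP_CKI 1 to 5 and 178, 278, 294, 273 and 221 in controls 1 to 5. SPOP_CKI 5 was the highest of all libraries and SPOP_CKI 2 the lowest. Irs1 had a log2 difference of -0.15 (SE 0.31, 95% interval -0.83 to 0.53, limma adjusted p = 0.748).

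Irs2 (mm10 chr8:10984681-11008458, minus strand) stood at 344, 351, 74.4, 245 and 386 scaled reads in SPOP_CKI 1 to 5 and 218, 255, 333, 416 and 367 in controls 1 to 5. 4 of the 5 SPOP_CKI libraries lay within the control range, and SPOP_CKI 3 was far below it. For Irs2 the log2 difference was -0.34 (SE 0.41, 95% interval -1.25 to 0.56, limma adjusted p = 0.566), and 0.08 without SPOP_CKI 3. The log2 ratio of Irs2 to Irs1 was 0.14 ± 0.97 in SPOP_CKI and 0.34 ± 0.34 in controls, a difference of -0.19 (SD, n = 5 each, exact two-sided permutation p = 0.70, adjusted over 3 ratios 0.70).

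Since FOXO factors lie at the end of the pathway, promoter windows were searched on both strands for GTAAACA, the core of the FOXO-binding motif, and for CAAAACA, the core of the insulin response element. The windows were the 250 bases before each RefSeq start on GRCm38.p6. GTAAACA was in 3.17% and CAAAACA in 5.56% of 32851 such windows. Of the members, 9 of 10 matched a RefSeq promoter entry, in 12 windows. None held GTAAACA, and 2 genes, Irs1 and Irs2, held CAAAACA. Of the 20 genes of the FOXO list described further on, 17 matched, in 19 windows: Trim63 held GTAAACA and Ccng2 held CAAAACA. Matches to the 2 motifs did not overlap. The windows of Irs1 (chr1:82291440-82291689, minus strand), Irs2 (chr8:11008930-11009179, minus strand) and Trim63 (chr4:134314870-134315119, plus strand) are printed because they are where both adaptors and a called FOXO-list gene hold a match. They run 5′ to 3′ on the strand of the gene, with the match in capitals. The capitals read TGTTTTG or TGTTTAC, the reverse complements of CAAAACA and GTAAACA.
Irs1: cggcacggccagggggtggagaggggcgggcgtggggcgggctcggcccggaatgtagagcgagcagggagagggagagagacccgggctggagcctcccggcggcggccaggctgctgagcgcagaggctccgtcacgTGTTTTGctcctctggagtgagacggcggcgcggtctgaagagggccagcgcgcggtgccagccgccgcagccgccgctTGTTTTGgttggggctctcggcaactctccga
Irs2: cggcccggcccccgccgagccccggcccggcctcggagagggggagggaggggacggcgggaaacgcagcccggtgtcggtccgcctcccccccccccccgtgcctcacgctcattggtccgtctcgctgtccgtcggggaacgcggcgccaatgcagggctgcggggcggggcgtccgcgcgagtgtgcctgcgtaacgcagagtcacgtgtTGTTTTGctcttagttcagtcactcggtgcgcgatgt
Trim63: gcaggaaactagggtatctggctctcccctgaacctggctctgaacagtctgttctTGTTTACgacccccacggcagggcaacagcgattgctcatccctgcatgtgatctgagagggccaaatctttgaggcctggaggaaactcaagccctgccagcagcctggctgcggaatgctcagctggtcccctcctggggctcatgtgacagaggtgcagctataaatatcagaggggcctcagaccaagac
The matches begin 111 and 32 bases before the start in Irs1, 37 bases before it in Irs2 and 194 bases before it in Trim63. A match is a description of these letters and not a measured site. Irs1 and Irs2 did not pass the test, while Trim63 fell, as given with the FOXO list.

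The 4 binding proteins differed from the ligands in level and did not pass the test. Igfbp3, the main carrier of the ligands in serum (mm10 chr11:7206086-7213923, minus strand), stood at 1513, 836, 976, 863 and 837 scaled reads in SPOP_CKI 1 to 5 and 816, 681, 1240.3, 1076 and 1005 in controls 1 to 5. SPOP_CKI 1 was above every other library, and the other 4 SPOP_CKI libraries were inside the control range. For Igfbp3 the log2 difference was 0.05 (SE 0.21, 95% interval -0.42 to 0.52, limma adjusted p = 0.875), and -0.11 without SPOP_CKI 1, in which it was highest.

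Igfbp4, a binding protein that holds ligand until the protease Pappa cleaves it (mm10 chr11:99041244-99054392, plus strand), stood at 2975, 2424, 1135, 3204 and 2776 scaled reads in SPOP_CKI 1 to 5 and 2731, 2904, 1945, 2477 and 2014 in controls 1 to 5. SPOP_CKI 3 was below every other library and the rest overlapped. The log2 difference was -0.02 (SE 0.27, 95% interval -0.60 to 0.57, limma adjusted p = 0.972). Its sign was not stable: without SPOP_CKI 3 the difference was 0.25, and after centring each library on transcript GC content it was 0.52 with a limma adjusted p of 0.05, just inside the threshold before rounding.

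Igfbp5, a binding protein of muscle and matrix (mm10 chr1:72857932-72874884, minus strand), had the smallest error of the members. It stood at 2504, 2151, 2307, 1952 and 2879 scaled reads in SPOP_CKI 1 to 5 and 1999, 2318, 2011, 1701 and 2378 in controls 1 to 5. The log2 difference was 0.18 (SE 0.15, 95% interval -0.16 to 0.51, limma adjusted p = 0.417), an interval that ends below the 0.60 at which that of Igf1 begins.

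Igfbp7, a secreted protein of vessels and matrix that binds these ligands weakly (mm10 chr5:77349240-77408041, minus strand), was widely scattered in SPOP_CKI hearts. Per kilobase of gene length, given further on, it was the most abundant member in both groups. It stood at 3118, 7874, 3288, 9308 and 1371 scaled reads in SPOP_CKI 1 to 5 and 3416, 3514, 2538, 3760.1 and 2559 in controls 1 to 5. SPOP_CKI 2 and 4 were above every control, SPOP_CKI 5 was below every control, and SPOP_CKI 1 and 3 were among them. The highest SPOP_CKI library was 6.79 times the lowest, against 1.48 times in controls. The log2 difference was 0.36 (SE 0.45, 95% interval -0.61 to 1.34, limma adjusted p = 0.577). It was 0.06 without SPOP_CKI 4, 0.12 without SPOP_CKI 2 and 0.75 without SPOP_CKI 5, and it was 0.66 with DESeq2, 0.68 with edgeR, 0.79 with array weights and 1.15 with GC centring, none of them past the threshold.

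**Figure D3:**
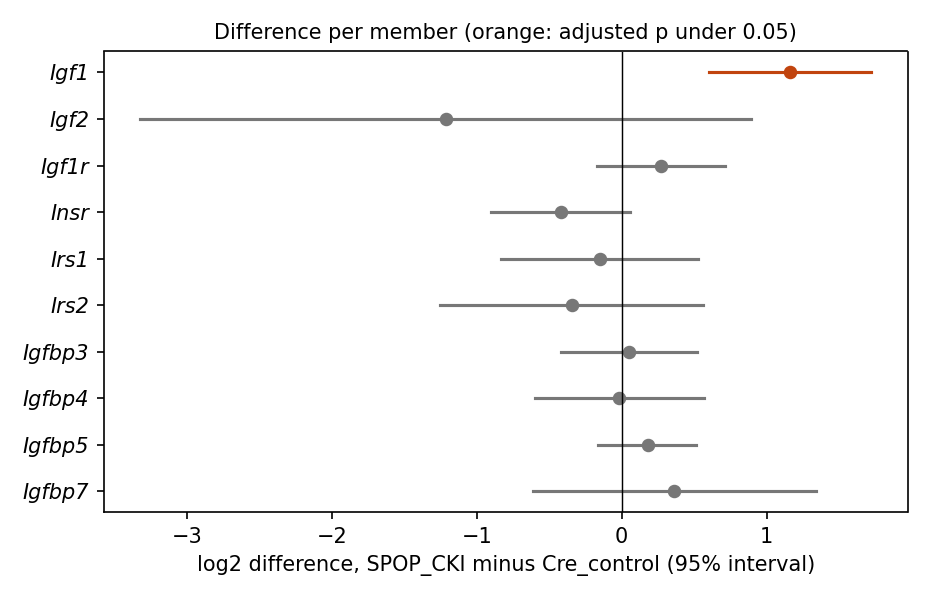
Log2 difference (x axis, SPOP_CKI minus Cre_control, from the limma fit over 14212 genes) of each member (y axis), with its 95% interval as a bar and orange for an adjusted p under 0.05. Igf1 at 1.16 is the 1 member whose interval lies wholly on one side of 0, and Igf2 has the widest interval, -3.32 to 0.89.

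The members varied more among SPOP_CKI libraries than among control libraries. The SD of log2(scaled reads + 1) over libraries was larger in SPOP_CKI for 10 of 10 members, where 86.7% of tested genes had the wider spread in SPOP_CKI. Without SPOP_CKI 3 it was 8 of 10 members and 72.3% of genes, so the members' share is near that of the table. Library SPOP_CKI 3 held the lowest value of all 10 libraries for 4 members, Igf2, Igf1r, Irs2 and Igfbp4. Library SPOP_CKI 5 held the highest for 4, Igf2, Igf1r, Irs1 and Igfbp5, and SPOP_CKI 4 for 3, Igf1, Igfbp4 and Igfbp7.

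**Figure D4:**
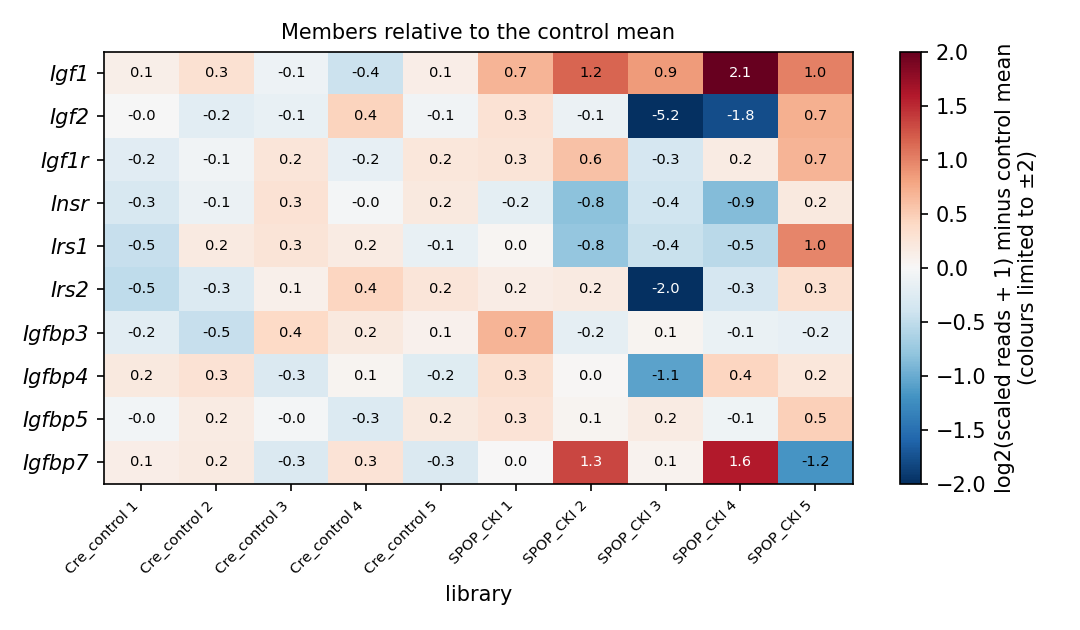
Log2(scaled reads + 1) of each member (rows) in each library (columns) minus the mean of the 5 controls, printed in each cell, with colours limited to a range of 2 on either side of 0. The Igf1 row is above 0 in all 5 SPOP_CKI libraries, and the Igfbp7 row is high in SPOP_CKI 2 and 4 and low in SPOP_CKI 5.

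Per kilobase of gene length, which allows levels to be compared between genes, the binding proteins led the axis and Igf2 came last in control hearts. Igfbp7 stood at 2612 ± 471 scaled reads per kilobase and Igfbp4 at 547 ± 96.4 (SD, n = 5), and each was above all libraries of the next gene. Igfbp5 at 347 ± 45.6, Igfbp3 at 308 ± 70.1 and Insr at 260.3 ± 43.3 followed, with ranges that overlapped their neighbours'. Irs2 at 50.3 ± 12.8, Igf1r at 42.5 ± 6.54, Igf1 at 31.0 ± 5.78 and Irs1 at 27.2 ± 5.24 formed a lower set, again with neighbours overlapping and all below Insr. Igf2 at 6.22 ± 1.26 was below all of these.

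In SPOP_CKI hearts Igf1 moved from the eighth place in this order to the sixth and Irs2 from the sixth to the eighth, and the other 8 members kept their places. Igf1 stood at 73.0 ± 32.8 scaled reads per kilobase, Igf1r at 52.2 ± 13.5 and Irs2 at 44.3 ± 19.99 (SD, n = 5), and these neighbours overlapped. Insr at 199.7 ± 63.4 remained above Igf1 in every library. Lengths were those in the deposited table, so a gene read mainly from a short transcript is placed too low on this scale.

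The genes whose pattern over the 10 libraries was closest to each member were found among 9853 tested protein-coding genes with a mean of at least 100 scaled reads. Likeness was the mean absolute difference of log2 values after each gene's own mean was subtracted. Closest to Igf1 were Dab2 at 0.15, with a log2 difference of 0.98 between groups (SE 0.22, limma adjusted p = 0.0112), and Golt1b at 0.17, with 1.28 (SE 0.20, adjusted p = 0.00203). Closest to Igfbp7 were Capg and the macrophage lysozyme gene Lyz2, each at 0.19. The closest pairs were Igf1r with BC024978 at 0.08, Igfbp5 with Usp4 at 0.08 and Cdk13 at 0.09, Igfbp4 with Nol3 at 0.09 and Plod1 at 0.13, and Insr with Phlpp1 at 0.10 and Tjp1 at 0.11. Irs2 lay nearest Rin3 at 0.14 and Trrap at 0.15, Irs1 nearest Serac1 at 0.16 and Pm20d2 at 0.17, and Igfbp3 nearest Kdm3a and Ranbp9 at 0.18 each. The genes nearest Igf2, Bcl9l at 0.39 and Unk at 0.42, were distant. The 10 libraries share the 2 groups and SPOP_CKI 3, and any gene moved by either comes close on this measure.

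Other extracellular partners of the ligands were described by a list of 16 genes, of which 10 were tested. 0 rose and 2 fell, Igfals and Igfbp6, beside 10.0% and 12.3% of all tested genes, and the list median log2 difference was 0.01 beside -0.11 for all genes. 1 of the list was higher at an unadjusted p under 0.05, and edgeR and DESeq2 each called 1 higher. Igfals, the acid-labile subunit that forms a serum complex with Igf1 and Igfbp3, stood at 10.8, 5.78, 0, 8.71 and 21.3 scaled reads in SPOP_CKI 1 to 5 and 105, 120.2, 64.6, 61.5 and 83.6 in controls 1 to 5. Every SPOP_CKI library was below every control, and the level was low in both groups. Igfals fell by 3.59 on the log2 scale (SE 0.73, limma adjusted p = 0.00658), and the difference was -4.01 to -2.80 over the other settings and left-out libraries, all past the threshold. With a read count of 0 in SPOP_CKI 3, its fitted difference depends on the added pseudocount.

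Igfbp6, a binding protein that prefers Igf2, averaged 271 ± 122 scaled reads with SPOP overexpressed against 488 ± 130.5 without, a log2 difference of -0.93 (SE 0.30, limma adjusted p = 0.0466). It was no longer called with edgeR, with array weights, with no filter on low values, without SPOP_CKI 1 or 5, with any 1 control left out, or without the 3 libraries with Xist reads (-0.85, adjusted p = 0.109), and after GC centring it was 0.02 with an adjusted p of 0.983. Igf2r, the clearance receptor that takes Igf2 to lysosomes, did not pass at 4413 ± 895 against 3117 ± 333 scaled reads (log2 difference 0.49, SE 0.16, limma adjusted p = 0.054), although its groups did not overlap. edgeR and DESeq2 both called it.

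Growth hormone signalling through Ghr, Jak2 and Stat5 is the classical drive of Igf1 transcription. Of 8 genes of this axis, all tested, 0 rose and 1 fell, beside 10.0% and 12.3% of all genes, with a list median of 0.20. 1 was higher at an unadjusted p under 0.05, edgeR called 0 higher and DESeq2 called 1. Stat5a stood at 205, 231, 264, 220.4 and 242 scaled reads in SPOP_CKI 1 to 5 and 397, 416, 333, 337 and 390.1 in controls 1 to 5. It fell by 0.69 on the log2 scale (SE 0.15, limma adjusted p = 0.00785) with no overlap, but after GC centring the difference was 0.04 (adjusted p = 0.959). Stat5b had a log2 difference of -0.37 (limma adjusted p = 0.074), the growth hormone receptor gene Ghr 0.42 (adjusted p = 0.17), and Socs2, a known Stat5 target, 0.29 (adjusted p = 0.365).

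Of 18 receptor adaptors and brakes, 17 were tested, 4 rose and 1 fell, beside 10.0% and 12.3% of all genes, with a list median of -0.14. The sign of that median was not stable. It was 0.38 without SPOP_CKI 3, 0.51 without the libraries with Xist reads, 0.38 with DESeq2, 0.39 with edgeR and 0.45 with GC centring. It stayed below 0 with TMM, with a replicate block and with any other library left out. Those that rose were Enpp1, a membrane pyrophosphatase known to bind and restrain the insulin receptor, the phosphatase Ptpn2, and the adaptors Crk and Crkl. Enpp1 stood at 214, 839, 326, 842 and 221 scaled reads in SPOP_CKI 1 to 5 and 157, 113, 126, 81.7 and 183 in controls 1 to 5, a log2 difference of 1.66 (SE 0.43, limma adjusted p = 0.0182). It was highest in SPOP_CKI 2 and 4, the libraries with the most Igf1 and Igfbp7. Crk had a log2 difference of 0.75 (SE 0.16, limma adjusted p = 0.00765), Ptpn2 0.79 (adjusted p = 0.0175) and Crkl 0.52 (adjusted p = 0.0323). GC centring ended the call of Ptpn2 (0.47, adjusted p = 0.145) and of Crkl (0.59, adjusted p = 0.062), and Crkl was also not called with no filter or without control 1, 2, 3 or 4 (limma adjusted p from 0.0533 to 0.0875). The 1 gene that fell was Ptpn11, the phosphatase SHP2, at -0.42 with a limma adjusted p of 0.0498, and it was not called once any 1 control was left out. Without control 4 the list held 2 called higher, since Enpp1 then missed the threshold as well (log2 difference 1.5, limma adjusted p = 0.0505).

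In the phosphoinositide 3-kinase, AKT and mTOR list, 30 of 30 genes were tested, 2 rose and 6 fell, beside 10.0% and 12.3% of all genes, with a list median of -0.14 near the -0.11 of all genes. Among the genes called lower, Ddit4, Eif4ebp1 and Akt1s1 had the largest differences. Ddit4, a stress-induced inhibitor of mTOR complex 1, stood at 339.7, 233, 42.9, 621 and 385 scaled reads in SPOP_CKI 1 to 5 and 1496, 1312, 1904, 4219.5 and 1291 in controls 1 to 5. All SPOP_CKI libraries were below all controls, and it fell by 2.91 on the log2 scale (SE 0.63, limma adjusted p = 0.00896). Eif4ebp1, the translation repressor that mTOR inactivates, fell by 1.55 (SE 0.30, limma adjusted p = 0.00552), from 2013 ± 793 to 692 ± 261 scaled reads. Akt1s1, a subunit that inhibits mTOR complex 1, had a log2 difference of -1.51 (SE 0.40, limma adjusted p = 0.0204), and Pik3r2, a regulatory subunit of the kinase, -0.98 (SE 0.27, adjusted p = 0.025). Akt1s1 and Pik3r2 were both lost without control 1 or without control 4, and Pik3r2 also without control 3. Without SPOP_CKI 3, Ddit4 was -2.30, Akt1s1 -1.07 and Pik3r2 -0.72. Without the libraries with Xist reads they were -2.38, -1.22 and -0.68, and all stayed called both times. After GC centring Pik3r2 was 0.02 (adjusted p = 0.97), Akt1s1 was -0.57 (adjusted p = 0.0277) and 4 genes of the list were called lower. The other genes that fell were Pik3r1 at -0.90 and Akt2 at -0.68, and those that rose were Pik3r3 at 0.68 and Gsk3b at 0.67 (limma adjusted p from 0.0122 to 0.041). Of these, Akt2 and Gsk3b both lost their calls with GC centring, with no filter and without control 1, 2, 3 or 4. Akt2 was also not called with edgeR, with a replicate block or without control 5. Its call was lost too without SPOP_CKI 1, 2 or 4, or without the libraries with Xist reads. Gsk3b was also not called without SPOP_CKI 2, 4 or 5. The number called lower was 3 without control 1 or control 4, 9 without SPOP_CKI 3 and 10 without SPOP_CKI 5.

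FOXO transcription factors are excluded from the nucleus when AKT is active, and their known targets include the muscle ubiquitin ligases Fbxo32 and Trim63. Of 20 FOXO factors and known targets, all tested, 0 rose and 14 fell, with a list median of -1.09 beside -0.11 for all genes and 12.3% of genes called lower. 12 of the 20 were below every control in every SPOP_CKI library, beside 12.3% of tested genes without overlap and lower in SPOP_CKI. 1 was higher at an unadjusted p under 0.05, the repressor Bcl6, and edgeR and DESeq2 each called 1 higher. Several of these genes are also known as targets of other factors, such as Pdk4 of the PPAR receptors, and the list was chosen with earlier results of these data in view, so its direction is not independent evidence.

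Fbxo32, also called atrogin-1, stood at 684, 407, 1125, 961 and 1480 scaled reads in SPOP_CKI 1 to 5 and 2343, 2768, 3627, 3946 and 2475 in controls 1 to 5. It fell by 1.80 on the log2 scale (SE 0.31, limma adjusted p = 0.00311). Trim63, also called MuRF1, fell by 1.64 (SE 0.28, adjusted p = 0.00309), from 3928 ± 1672 to 1226 ± 370.5 scaled reads. Its SPOP_CKI libraries ran from 852 to 1613 and its controls from 2490 to 6718, again without overlap. Pdk4, the kinase that turns off pyruvate dehydrogenase, fell by 4.29 (SE 0.41, adjusted p = 0.000241), from 52127 ± 16049 to 3031 ± 2061 scaled reads. Ccng2, a cyclin that FOXO induces in quiescent cells, fell by 1.62 (SE 0.23, adjusted p = 0.00139). Of the factors, Foxo3 fell by 1.44 (SE 0.31, adjusted p = 0.00912) and Foxo4 by 1.18 (SE 0.30, adjusted p = 0.0168), while Foxo1 had a log2 difference of 0.18 (SE 0.21, adjusted p = 0.54). With GC centring 9 of 20 were called lower, Foxo4 no longer among them, and the list median was -0.70; leaving out single libraries gave 13 to 14.

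**Figure D5:**
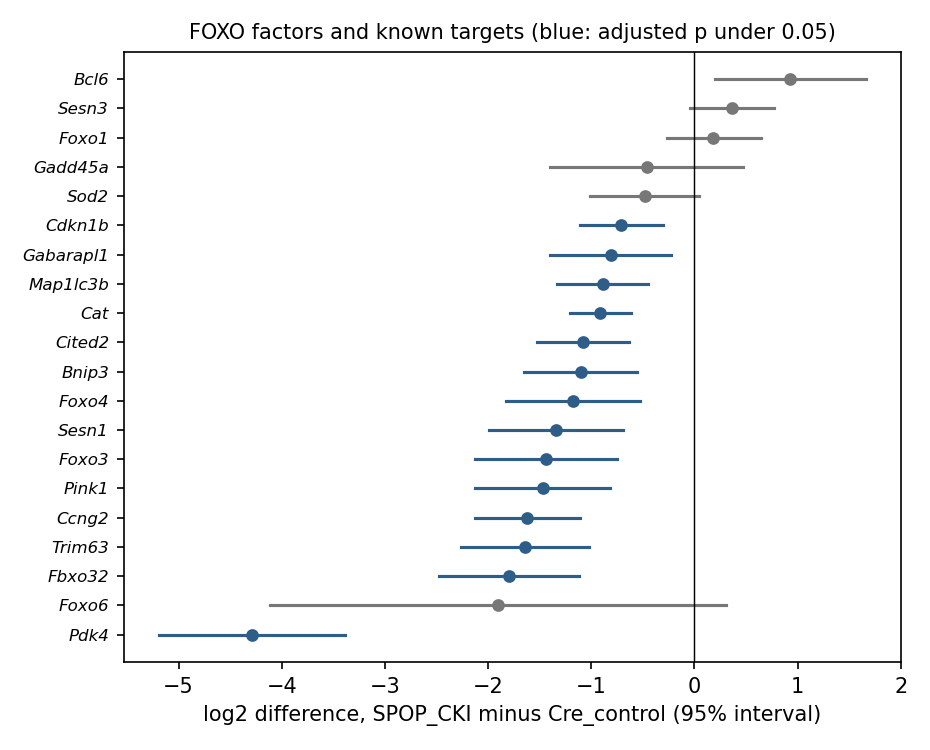
Log2 difference (x axis, SPOP_CKI minus Cre_control) of the 20 FOXO factors and known targets (y axis), with 95% intervals as bars and blue for an adjusted p under 0.05 in the limma fit over all genes. The 14 blue genes all lie below 0, from Cdkn1b at -0.71 to Pdk4 at -4.29, and 3 genes, Bcl6, Sesn3 and Foxo1, lie above 0 without passing.

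The Ras-ERK branch had 14 of 14 genes tested, of which 5 rose and 2 fell, beside 10.0% and 12.3% of all genes, with a list median of 0.23. The genes that rose included the feedback inhibitors Spred1 at a log2 difference of 1.0 (SE 0.19, limma adjusted p = 0.00475), Spry4 at 0.79 (SE 0.20, adjusted p = 0.0184) and the ERK phosphatase gene Dusp6 at 0.79 (SE 0.23, adjusted p = 0.0314). The other 2 were Nras at 0.76 and the exchange factor Sos1 at 0.64. Mapk3, which encodes ERK1, fell by 1.06 (SE 0.24, adjusted p = 0.0114), and Hras had a log2 difference of -0.55 (adjusted p = 0.0452). Mapk3 was -0.82 without SPOP_CKI 3 and -0.94 without the libraries with Xist reads, called both times. Dusp6 was not called without control 1, 3, 4 or 5, without SPOP_CKI 2 or 4, or without the libraries with Xist reads (limma adjusted p from 0.0594 to 0.0752), and Spry4 was not called without control 4 (adjusted p = 0.0505). Sos1 and Hras lost their calls in most of the left-out libraries. After GC centring 3 were called higher and 0 lower, so that Nras, Sos1, Mapk3 and Hras were not called, and without control 4 the count higher was 2.

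Some markers of heart cells were called between the groups and many were not. Their counts stand beside 10.0% of all tested genes called higher and 12.3% called lower. Of 12 fibroblast markers 3 rose and 0 fell, and their summed level was 64576 to 161500.0 scaled reads in SPOP_CKI and 67218 to 79973 in controls. Of 9 tested markers of activated fibroblasts 5 rose, with sums of 8508 to 60223 against 2321 to 4233, and Cthrc1 was at 0 in 1 SPOP_CKI library. Of 12 macrophage and monocyte markers 3 rose and 1 fell, with sums of 6704 to 29652 against 6959 to 12125 and no marker at 0. Of 12 endothelial markers 8 fell, with sums of 42339 to 88077 against 115459 to 129210.4. Of 12 ventricular cardiomyocyte markers 1 rose and 5 fell, with sums of 413368 to 790981 against 799051 to 1000437. The labelled tissue thus held the cardiomyocyte markers in every library.

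These sums ran beside Igf1 and Igfbp7 in part. Libraries SPOP_CKI 4 and 2 had the highest fibroblast sums, 161500.0 and 113656, the highest macrophage sums, 29652 and 22851, the most Igf1 and the most Igfbp7. In SPOP_CKI 3 the fibroblast sum, 94644, was also above every control, and the macrophage sum, 9529, was within the control range. Igf1 in that library, at 546 scaled reads, was above every control and Igfbp7 at 3288 was not. In SPOP_CKI 1 and 5 the fibroblast sums, 73390 and 64576, and the macrophage sums, 6985 and 6704, lay within or below the control ranges, while Igf1 at 487 and 612 scaled reads was above every control and Igfbp7 at 3118 and 1371 was not. The activated fibroblast sum was above every control in all 5 SPOP_CKI libraries, and its part in the Igf1 difference was not tested. Among the other marker lists, 3 of 3 tested neutrophil markers rose, 4 of 5 erythroid markers and 1 of 9 pericyte and smooth muscle markers fell, and none of the 5 adipocyte markers reached the level for testing. Of 3 tested atrial cardiomyocyte markers 1 rose and 1 fell. None was called of 6 endocardial and lymphatic markers or 5 mesothelial and epicardial markers. The same held for 3 tested Schwann cell markers and 1 tested marker of T, B and NK cells. No cell type was measured separately.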

How the data were processed

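Poly(A) RNA of mouse heart was sequenced in 10 libraries, and the authors deposited 1 table of 24888 genes. The submitters' processing notes name featureCounts 1.5.0-p3, DESeq2 1.20.0 and mm10. What aligned the reads was not given in the sources used here, nor was an annotation release. The authors deposited, for each library, a normalized signal: reads divided by a size factor, from which whole reads were recovered for 100% of values at a tolerance of 0.001. Their table also has log2 fold changes and p-values deposited by the authors, quoted only where named.

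Genes with at least 10 scaled reads in at least 5 libraries (14212) were tested with limma 3.58.1 (R 4.3.3; trend and robust moderation) on log2(value + 1), with Benjamini-Hochberg adjustment over all of them and a threshold of 0.05. The change fitted for a low gene depends on the pseudocount: Igfals was -3.84 with 0.5, -3.59 with 1 and -2.83 with 5. On the recovered reads Igfals was -3.25 with DESeq2 and -3.21 with edgeR. Ratios were tested by exact permutation. Alternatives were DESeq2 1.42.0 and edgeR 4.0.16 on the recovered reads, TMM and quantile scaling, other filters (none, 50) and pseudocounts (0.5, 5), array weights, a replicate block and each library left out.

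Libraries of 1 group differed beyond sampling noise (lowest chi-square per gene 13.8), so all 10 were kept. The members and lists were chosen with earlier results of these data known. Named genes are all members, the called list genes with the largest fold change (up to 4 per list, or the 2 of lowest p if only 1 or 0 passed) and, for each member, the 2 genes nearest in pattern, of which 1 is not reported here. Pik3r1, Akt2, Pik3r3, Gsk3b, Ptpn11, Nras, Sos1, Hras, Foxo1, Foxo3, Foxo4, Bcl6, Igf2r, Ghr and Socs2 were named after their values were seen. The code that fits the model was tested on simulated data.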

Additional observations from a re-analysis of the deposited data

Results flagged for a closer look

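Each member was examined in each group for a library far from the other 4, by setting its gap to the nearest library against the whole range of the group; 20 groups were examined and 3 stood out past the critical value of 0.71 for 5 libraries, where chance alone marks about 1 in 20 groups. Igf1 in SPOP_CKI 4 was 1289 scaled reads against 487 to 681 in the other 4 (gap over range 0.759). Igf2 in Cre_control 4 was 48.1 scaled reads against 30.04 to 35.0 (0.724), a small number of reads. Igfbp3 in SPOP_CKI 1 was 1513 scaled reads against 836 to 976 (0.793).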

How the results depend on the processing

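Centring on transcript GC content and leaving out the 3 libraries with Xist reads were chosen after seeing the data. Igf1, Igf2, Igf1r, Insr, Igfbp5, Igfbp7 and Spop kept their direction and their side of the threshold in every alternative run. Members near 0 changed sign without passing, other than Igfbp4 with GC centring: with GC centring Irs1 was 0.04, Irs2 0.29 and Igfbp4 0.52, with weights on libraries by their scatter (array weights) Irs2 was 0.07 and Igfbp4 0.19, and without the libraries with Xist reads Irs2 was 0.12, Igfbp3 -0.13 and Igfbp4 0.16. Igfbp4 was also 0.05 with DESeq2, 0.07 with edgeR, 0.00 with TMM and 0.02 with quantile normalization. GC centring gave 2 members called higher and 847 genes called lower, and array weights, which gave SPOP_CKI 3 a weight of 0.086, gave 2429 genes higher and 2891 lower. The cause of these changes was not tested.

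Leaving out 1 library at a time gave log2 differences of -0.43 to 0.01 for Irs1, -0.51 to 0.08 for Irs2, -0.11 to 0.15 for Igfbp3, -0.13 to 0.25 for Igfbp4, 0.06 to 0.75 for Igfbp7, and -0.48 to 0.16 for the ratio of Irs2 to Irs1. It gave 891 to 1930 genes called higher and 1034 to 2450 lower, with the lowest counts higher without control 4 (891) or control 1 (901) and the lowest counts lower without control 1 (1034), control 4 (1056) or control 2 (1124). The ratio of Igf1 to Igf2 differed by 1.46 to 2.89 and that of Igf1r to Insr by 0.51 to 0.84.

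In the list of binding and processing genes, 1 was called higher with DESeq2, edgeR, GC centring, a filter of 50, quantile normalization or without the libraries with Xist reads, and 2 with array weights, while 1 was called lower with GC centring, edgeR or no filter. In the growth hormone axis 1 was higher with DESeq2, GC centring, array weights or without the libraries with Xist reads, and the count lower was 2 with DESeq2 or array weights and 0 with GC centring. Among receptor adaptors and brakes the count lower was 0 with TMM, edgeR, no filter, a pseudocount of 5, quantile normalization or the replicate block, and 2 with array weights or without the libraries with Xist reads. Ptpn11 was not among the 2 called lower without the libraries with Xist reads. In the phosphoinositide 3-kinase, AKT and mTOR list 1 was higher with GC centring or no filter, and 11 were lower with array weights. In the FOXO list 1 was higher with DESeq2, edgeR, array weights, quantile normalization, the replicate block or without the libraries with Xist reads, and 9 were lower with GC centring. In the Ras-ERK branch GC centring gave 3 higher and 0 lower, and TMM, no filter or leaving out the libraries with Xist reads gave 1 lower. With single libraries left out the counts higher and lower were, in the same order of lists, 0 to 1 and 1 to 2, 0 to 1 and 1 to 2, 2 to 5 and 0 to 1, 1 to 3 and 3 to 10, 0 to 1 and 13 to 14, and 2 to 5 and 1 to 2.

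The replicate numbers of the titles were checked as possible pairs without a formal test, so pairing is not excluded. Same-numbered libraries correlated in their deviations from the group means at 0.11, 0.10, 0.16, 0.08 and 0.03, and only SPOP_CKI 1 and 3 correlated best with the control of their own number. With the number as a replicate block, 1310 genes were called higher and 1636 lower, and Igf1 kept its log2 difference of 1.16 with a limma adjusted p of 0.027. The paired ratios differed by 0.69 for Igf1r to Insr and 2.38 for Igf1 to Igf2, each with an exact permutation p of 0.062, the smallest that 5 pairs allow. Depth limits mainly Igf2, which had under 60 scaled reads in every library.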
